A study of Mus musculus with 38 samples.

Results

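The genes described here are 9 genes known for their part in T follicular helper cells, followed through mouse Th17 cells that were deleted for CHD1, for the glucocorticoid receptor (GR) or for the IL-23 receptor (IL-23R), or were treated with dexamethasone. They were taken by symbol from the 4 deposited count tables and are Bcl6, Tox, Tox2, Pou2af1, Cxcr5, Icos, Slamf6, Sh2d1a and Il21, 9 of 31053 symbols. T follicular helper cells are CD4 T cells that enter B cell follicles and help B cells to make antibody. The transcription factor BCL6 directs them and is opposed by BLIMP-1, the product of Prdm1, while CXCR5 draws them to the follicle, ICOS and SLAM family receptors pass signals from B cells, and IL-21 is their main cytokine. Th17 cells share some of this machinery, and IL-21 and ICOS are also products of Th17 cells.

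The series asks how IL-23 signalling, GR and the chromatin remodeler CHD1 shape Th17 cells in autoimmune disease of the nervous system. In the transfer experiments, naive 2D2 T cells (whose receptor recognises a myelin protein) from CHD1 cKO, GR cKO or matching WT mice, all C57/B6, were made into Th17 cells in culture and injected into WT recipients, which developed experimental autoimmune encephalomyelitis. At peak disease, 2000 2D2+ cells per library were sorted from the central nervous system (CNS) of the CHD1 cKO (n = 4), CHD1 WT (n = 3), GR cKO (n = 4) and GR WT (n = 4) groups, and from the draining lymph nodes (dLN) of the CHD1 cKO (n = 4) and CHD1 WT (n = 3) groups. The culture experiment held IL-23R KO cells with dexamethasone (Dex, a synthetic ligand of GR) for 2 days, IL-23R KO controls, WT cells with Dex and WT controls (n = 4 each), with no transgenic receptor named in the labels and Th17 cells sorted live. Throughout, n counts libraries. The labels do not name the Cre line of either cKO, the number of animals behind the libraries, or animal ages, so p values measure the spread between libraries, which may be partly technical.

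Libraries held 3148634 to 9159671 counts, and features of repeats or ribosomal RNA made up 13.1 to 59.7% of each library, with the highest shares in the dLN. The 10 T cell markers examined were detected in every group, with Cd3e at 206 to 754 CPM. Il17a, the hallmark Th17 cytokine, was at 0 to 0.911 CPM in all CNS and dLN groups, and reached 128 CPM in WT cultures. Nr3c1, which encodes GR, was at 5.18 to 6.10 CPM in the GR cKO libraries, against 11.5 to 17.2 CPM in the GR WT libraries, without overlap and without a call (log2 fold change −1.297 ± 0.159, adjusted p = 0.113). The levels of Chd1 overlapped between cKO and WT cells in both tissues. Il23r was still counted in IL-23R KO controls at 3.95, 5.27, 2.14 and 4.53 CPM, against 7.25, 8.01, 6.12 and 5.77 CPM in WT controls. Counts per gene do not show which exons they come from, so these last values are no check of either deletion. In such bulk libraries, fewer cells of a type and less RNA per cell cannot be told apart.

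Levels are CPM, a gene's share of its library's counts after scaling of the total by TMM, and log2 fold changes come from edgeR's quasi-likelihood fit over all genes. Their ± values are approximate standard errors, derived as the absolute log2 fold change divided by the square root of the F statistic. A gene is called where its Benjamini-Hochberg adjusted p over all genes of a fit is under 0.05. A filter on low counts left 5 of the 9 genes tested in culture (Cxcr5, Icos, Slamf6, Sh2d1a and Il21), 8 in the CHD1 CNS libraries (not Pou2af1), 7 in the dLN (not Tox2 or Il21), 7 in the GR libraries (not Tox2 or Pou2af1) and 9 in the joint fit of both tissues. The 9 genes lie on 7 chromosomes in the mm10 build: Icos (chr1:60977927-61000320, plus strand) and Slamf6 (chr1:171917515-171953170, plus) share chromosome 1, and Cxcr5 (chr9:44511787-44561877, minus) and Pou2af1 (chr9:51213708-51240080, plus) share chromosome 9. Tox2 (chr2:163203125-163324170, plus), Il21 (chr3:37222759-37232636, minus), Tox (chr4:6686353-6991557, minus), Bcl6 (chr16:23965052-23988852, minus) and Sh2d1a (chrX:42502453-42529330, plus) stand alone on theirs.

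Of the 9 genes, 5 matched a RefSeq table of promoters (GRCm38.p6). The 250 bases before the start are shown for Slamf6 and Il21, because both were lower in Dex-treated IL-23R KO cells than in Dex-treated WT cells. Slamf6 is on the plus strand (chr1:171917212-171917461) and Il21 on the minus strand (chr3:37232637-37232886), each printed 5′ to 3′ with capitals marking matches to the NFAT core TGGAAA.
Slamf6: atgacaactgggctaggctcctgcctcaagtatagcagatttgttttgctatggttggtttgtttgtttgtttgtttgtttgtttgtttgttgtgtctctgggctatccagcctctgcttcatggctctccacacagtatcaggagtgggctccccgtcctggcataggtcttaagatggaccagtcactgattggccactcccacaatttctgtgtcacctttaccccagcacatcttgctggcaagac
Il21: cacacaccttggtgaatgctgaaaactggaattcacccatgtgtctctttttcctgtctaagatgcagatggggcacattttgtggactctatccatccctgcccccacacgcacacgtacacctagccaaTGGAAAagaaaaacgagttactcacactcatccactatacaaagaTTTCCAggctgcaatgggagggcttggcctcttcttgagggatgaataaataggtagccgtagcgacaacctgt
The Il21 window held 2 matches to this core, one on each strand, and the Slamf6 window held 0. Searched on both strands, the core was present in 18.6% of all 32851 promoter windows of 250 bases. Neither window held the GR half-site AGAACA (16.1% of all windows), the AP-1 site TGANTCA (6.75%) or the STAT site TTCNNNGAA (7.02%). Among windows not printed, Bcl6 start 2 had 1 match to the GR half-site, 1 to the NFAT core and 3 to the STAT site. Bcl6 start 1 had 1 match to the STAT site. A match or its absence here describes letters only.

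Dexamethasone moved these genes in different directions, and it did so in both genotypes. Icos, the costimulatory receptor, rose in both, while Sh2d1a, which encodes the SAP adaptor behind SLAM receptors, fell in both. Slamf6, which encodes a SLAM receptor that signals through SAP, fell in IL-23R KO cells and did not pass the test in WT cells, where its fitted change was upward. In IL-23R KO cells 3 of the 5 tested genes were called, where 54.7% of the 10813 genes tested were (27.3% higher and 27.4% lower), a share close to the background. In WT cells 2 of 5 were called, where 8.08% of all genes were (3.88% higher and 4.2% lower). The groups of 3 of the 5 genes did not overlap in each genotype, where 48% of all genes did not in IL-23R KO cells and 16.1% in WT cells.

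**Figure D1:**
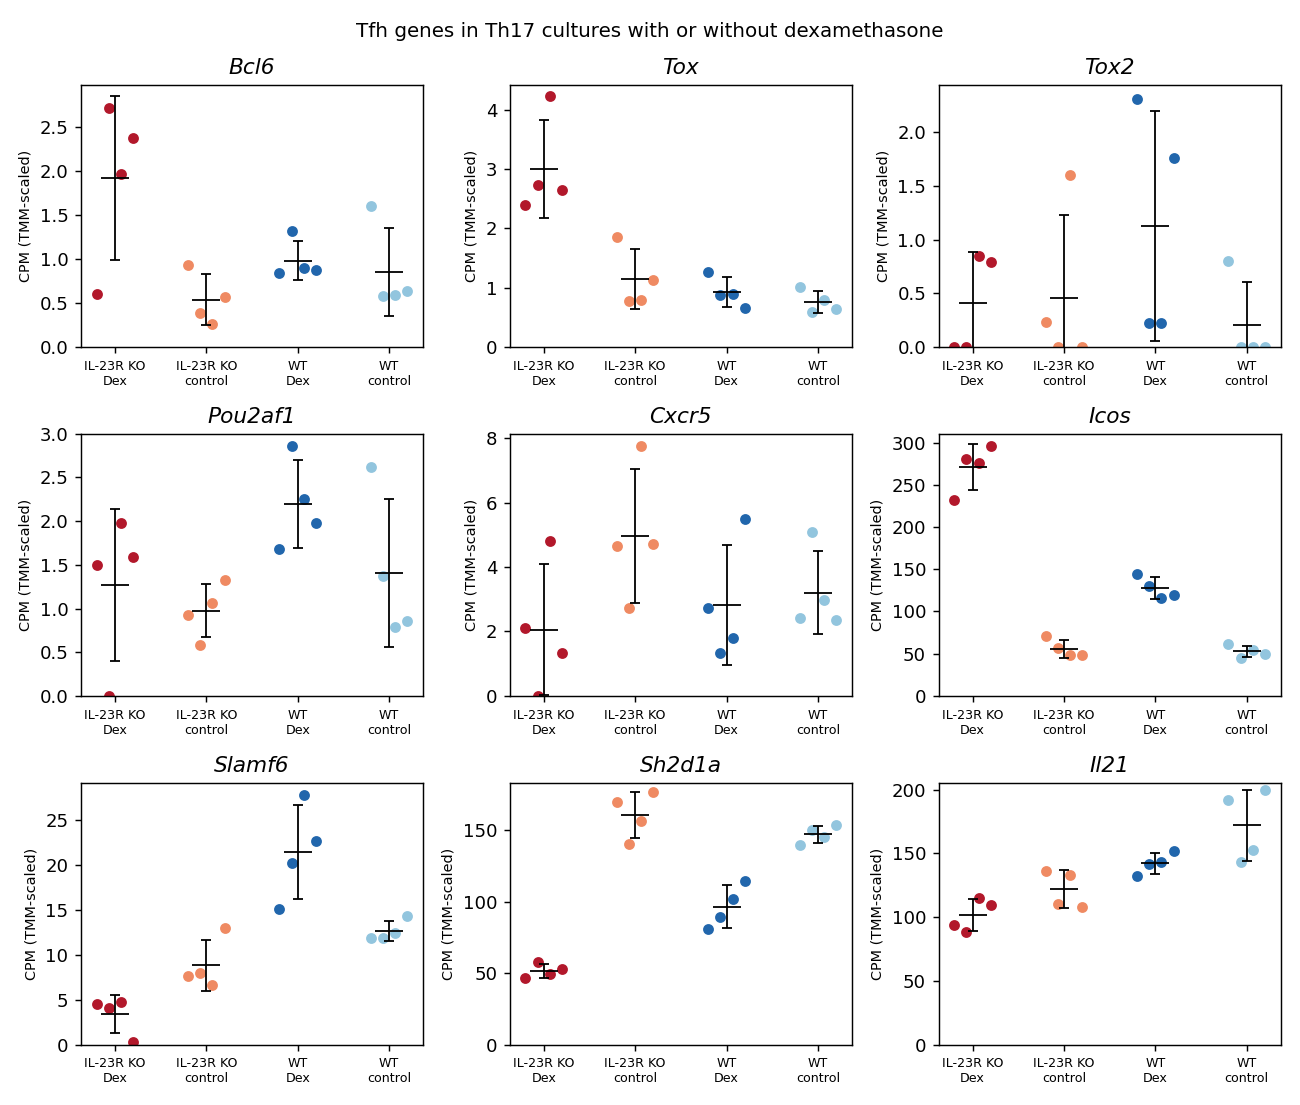
Levels of the 9 genes in CPM (linear axes from 0) in each library of the culture experiment, with IL-23R KO Dex, IL-23R KO control, WT Dex and WT control from left to right. Dots are libraries, black bars the mean and whiskers the SD (n = 4 each, cut at 0). Icos was higher and Sh2d1a lower with Dex in both genotypes without overlap, while Slamf6 was lowest in IL-23R KO Dex cells and highest in WT Dex cells.

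Icos had 232, 280.0, 275 and 296 CPM in IL-23R KO Dex libraries, against 70.7, 57.1, 48.1 and 48.2 CPM in IL-23R KO controls. In WT cells it had 145, 129.7, 116 and 119 CPM with Dex, against 61.0, 45.3, 54.9 and 49.6 CPM in controls. The Dex libraries lay above all controls of their genotype, and the IL-23R KO Dex libraries above all others. The log2 fold change was 2.27 ± 0.13 in IL-23R KO cells (adjusted p = 4.84e-10) and 1.27 ± 0.13 in WT cells (adjusted p = 9.75e-06). The difference of these 2 responses was itself called, at 1.00 ± 0.18 on the log2 scale (adjusted p = 0.000392).

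Sh2d1a had 46.4, 57.9, 49.1 and 53.0 CPM in IL-23R KO Dex libraries, against 169.6, 140.0, 156 and 176 CPM in IL-23R KO controls. In WT cells it had 80.8, 89.0, 102 and 115 CPM with Dex, against 139, 149.8, 145 and 153 CPM in controls. The Dex and control libraries did not overlap in either genotype. Sh2d1a fell by 1.64 ± 0.11 on the log2 scale in IL-23R KO cells (adjusted p = 3.14e-09) and by 0.61 ± 0.10 in WT cells (adjusted p = 0.00132). The interaction was −1.03 ± 0.15 (adjusted p = 6.14e-05), so the fall was larger in IL-23R KO cells.

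Slamf6 had 4.49, 4.09, 4.80 and 0.265 CPM in IL-23R KO Dex libraries, against 7.68, 7.996, 6.68 and 13.04 CPM in IL-23R KO controls. In WT cells it had 15.1, 20.2, 27.8 and 22.6 CPM with Dex, against 11.9, 11.9, 12.4 and 14.3 CPM in controls. The groups did not overlap in either genotype, with Dex libraries below controls in IL-23R KO cells and above them in WT cells. The fall in IL-23R KO cells was −1.42 ± 0.39 (adjusted p = 0.00561), and the value in WT cells was 0.76 ± 0.29 (adjusted p = 0.122). In a fit of the 8 WT libraries alone the WT value was called (0.76, adjusted p = 0.0247). The interaction was −2.18 ± 0.49 (adjusted p = 0.00255), and 3 of the 5 genes had a called interaction, where 32.2% of all genes did (15% positive and 17.2% negative). Slamf6 and Sh2d1a both had their lowest levels in IL-23R KO Dex cells, and had fitted values of opposite sign in WT cells.

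Il21 stayed among the most abundant of the 9 genes in every culture. It had 94.1, 88.2, 115 and 109.9 CPM in IL-23R KO Dex libraries, against 136, 111, 133 and 108 CPM in IL-23R KO controls. In WT cells the values were 132, 141, 143 and 152 CPM with Dex, against 192, 144, 152 and 199.7 CPM in controls. Dex and control libraries overlapped in both genotypes. The log2 fold changes were −0.25 ± 0.12 in IL-23R KO cells (adjusted p = 0.0809) and −0.27 ± 0.12 in WT cells (adjusted p = 0.168), and neither was called by edgeR. In IL-23R KO cells DESeq2 called Il21 lower (−0.29, adjusted p = 0.0493), as did edgeR without IL-23R KO control library 8 (−0.31, adjusted p = 0.0499). Their difference was 0.02 ± 0.17 (adjusted p = 0.945).

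Cxcr5, the receptor for the follicular chemokine CXCL13, had 2.10, 0, 4.80 and 1.32 CPM in IL-23R KO Dex libraries, against 4.65, 2.73, 7.74 and 4.72 CPM in IL-23R KO controls. A count of 0 allows up to 3 counts, which is 0.312 to 1.02 CPM across the 38 libraries, for counting error only. The log2 fold change was −1.20 ± 0.58 (adjusted p = 0.0909). In WT cells Cxcr5 had 2.73, 1.32, 1.81 and 5.49 CPM with Dex, against 2.42, 5.08, 2.96 and 2.35 CPM in controls, with a log2 fold change of −0.18 ± 0.55 (adjusted p = 0.890). The groups overlapped in both genotypes. Without IL-23R KO Dex library 7, the gene was called in IL-23R KO cells (−2.02, adjusted p = 0.0158).

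The transcriptional regulators were near the limit of counting in culture. Bcl6 had 0.599, 2.73, 1.98 and 2.38 CPM in IL-23R KO Dex libraries, from 2 to 9 counts, against 0.930, 0.390, 0.267 and 0.567 CPM in IL-23R KO controls. Tox, an HMG-box factor, had 2.40, 2.73, 4.23 and 2.65 CPM in IL-23R KO Dex libraries, against 1.86, 0.780, 0.801 and 1.13 CPM in IL-23R KO controls. The Tox groups did not overlap and the Bcl6 groups did. Both failed the filter on low counts and were not tested there. Fits that kept them called both higher with Dex in IL-23R KO cells, Tox at 1.36 with DESeq2 (adjusted p = 0.0312) and 1.33 in edgeR without a filter (adjusted p = 0.0193), and Bcl6 at 1.79 (adjusted p = 0.0367) and 1.73 (adjusted p = 0.0264). In WT cells Bcl6 averaged 0.985 ± 0.224 CPM with Dex and 0.857 ± 0.502 CPM in controls, and Tox 0.925 ± 0.248 and 0.756 ± 0.188 CPM (SD, n = 4 each). Tox2, a relative of Tox, and Pou2af1, which encodes the octamer coactivator OBF-1, had at most 2.31 and 2.86 CPM in any culture.

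Between genotypes, 0 of the 5 tested genes were called in cultures without Dex and 4 in cultures with Dex. In controls, edgeR called 0 of 5 genes, 1 had an unadjusted p under 0.05, DESeq2 called 1, and 0.684% of all genes were called, with 1051 of 10813 at an unadjusted p under 0.05. That gene was Il21, with all IL-23R KO controls below all WT controls, where 5.6% of all genes did not overlap, and a log2 fold change of −0.50 ± 0.12 (adjusted p = 0.0630 in edgeR, 0.00639 with DESeq2). Slamf6 was also negative in controls (−0.49 ± 0.31), against Cxcr5 (0.60 ± 0.52), Sh2d1a (0.13 ± 0.10) and Icos (0.09 ± 0.13). With Dex, Il21 fell by 0.48 ± 0.12 in IL-23R KO relative to WT cells (adjusted p = 0.00341), also without overlap. Sh2d1a fell by 0.90 ± 0.11 (adjusted p = 4.51e-06) and Slamf6 by 2.67 ± 0.36 (adjusted p = 1.58e-05), while Icos rose by 1.09 ± 0.12 (adjusted p = 1.65e-06). Of all genes, 45.9% were called in this comparison (22.2% higher and 23.7% lower), and 41.7% did not overlap, as did not these 4. Tox, which failed the filter, had 2.40 to 4.23 CPM in IL-23R KO Dex and 0.658 to 1.26 CPM in WT Dex libraries, without overlap, and was called higher in the 3 fits that kept it, at 1.68 with DESeq2 (adjusted p = 0.0106), 1.62 without a filter (adjusted p = 0.00688) and 1.66 without repeat features (adjusted p = 0.00107). The comparisons share libraries, so their values are not independent of each other.

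The other genes of the follicular programme also split. Of 22 tested genes on a list of further follicular helper genes, 6 rose and 10 fell with Dex in IL-23R KO cells, and 4 rose and 5 fell in WT cells. Of all genes, 54.7% were called in IL-23R KO and 8.08% in WT cells. The list's medians were −0.13 and −0.02 on the log2 scale, against 0.01 over all genes in each. In IL-23R KO cells Cd40lg (CD40 ligand, the contact signal to B cells) fell by 2.31, Pdcd1 (PD-1, an inhibitory receptor) fell by 1.83 and Il4 (the cytokine IL-4) fell by 2.63, whereas Ascl2, a factor that can induce Cxcr5, rose by 2.86. In WT cells Il4 fell by 1.92 and Cd28, the receptor for B7 ligands, rose by 0.60. Pdcd1 had 15.6, 18.4, 11.6 and 20.1 CPM in IL-23R KO Dex libraries, against 55.1, 71.0, 50.5 and 57.2 CPM in IL-23R KO controls, without overlap. The interaction of Pdcd1 was −1.53 (adjusted p = 2.69e-05).

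Of 13 tested genes that oppose BCL6 or the follicular fate, 8 rose and 3 fell with Dex in IL-23R KO cells, and 2 rose and 2 fell in WT cells, with medians of 0.80 and 0.15 and the same shares of all genes called as above. Prdm1 had 3.60, 5.79, 3.11 and 4.77 CPM in IL-23R KO Dex libraries, against 0, 0.195, 0.534 and 0.756 CPM in IL-23R KO controls, and rose by 3.41 ± 0.65 on the log2 scale (adjusted p = 0.000282). Its groups did not overlap. Id2 (an inhibitor of E proteins) rose by 1.88 and Ccr7 (a lymph node homing receptor) by 2.01, while Tbx21 (T-bet, the Th1 regulator) fell by 2.74 in IL-23R KO and by 1.66 in WT cells. Of 9 tested genes of the SLAM and SAP system beside the 2 described above, 4 rose and 3 fell in IL-23R KO cells, among them Cd48 (−0.80) and Cd84 (−0.76), 2 relatives of Slamf6, and edgeR and DESeq2 called 0 of 9 in WT cells, where 1 had an unadjusted p under 0.05. Of 6 corepressors that work with BCL6, 4 rose and 0 fell in IL-23R KO cells (Bcor by 0.90, Ncor1 by 0.70, Hdac7 by 0.68 and Mta3 by 0.51). Of all genes, 54.7% were called there in either direction and 27.3% were called higher. Of 4 tested regulators of Icos and Il21 beside these, 2 rose there: Rc3h1 and Rc3h2, which encode the Roquin proteins that degrade Icos mRNA in mice, by 0.93 and 0.63.

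The IL-23R KO Dex libraries stood apart in other measures as well. Mitochondrial transcripts took 0.359 to 0.447% of their counts, against 1.56 to 1.91% in IL-23R KO controls and 1.46 to 2.26% in WT Dex libraries, and repeat and ribosomal RNA features took 30.5 to 37.5%, against 13.5 to 22.1% and 21.0 to 25.4%. The summed level of 7 dendritic cell and antigen presentation markers was 839.8 to 993 CPM, against 206 to 349 and 220.0 to 286 CPM, with Itgax at 0. Of these, 3 were tested for Dex in IL-23R KO cells, and 1 was called higher and 1 lower. Of all genes, 27.3% were called higher there and 27.4% lower. The summed level of 10 T cell markers was 2831 to 3179 CPM, against 3709.97 to 3905 and 3412 to 4019.6 CPM. B cell markers summed to 77.6 to 90.6 CPM, against 70.8 to 84.9 and 86.7 to 93.1 CPM, with Blk at 0 in all 4 culture groups. The part of these features in the results was not tested.

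In mice, the genes separated into those higher in the CNS and those higher in the dLN. Il21 and Icos rose in CNS cells relative to dLN cells of both CHD1 genotypes, and Pou2af1 fell in both. Bcl6 was called higher in the CNS in CHD1 WT cells, while Slamf6, Tox and Cxcr5 were called lower in the CNS in CHD1 cKO cells. That made 6 of 9 genes in CHD1 cKO cells, where 47.3% of 11589 genes were called (24.6% higher and 22.7% lower), and 4 of 9 in CHD1 WT cells, where 16.7% were (11.8% higher and 4.93% lower). Tissue is confounded with the deposited table, so the tissue and the table cannot be told apart.

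**Figure D2:**
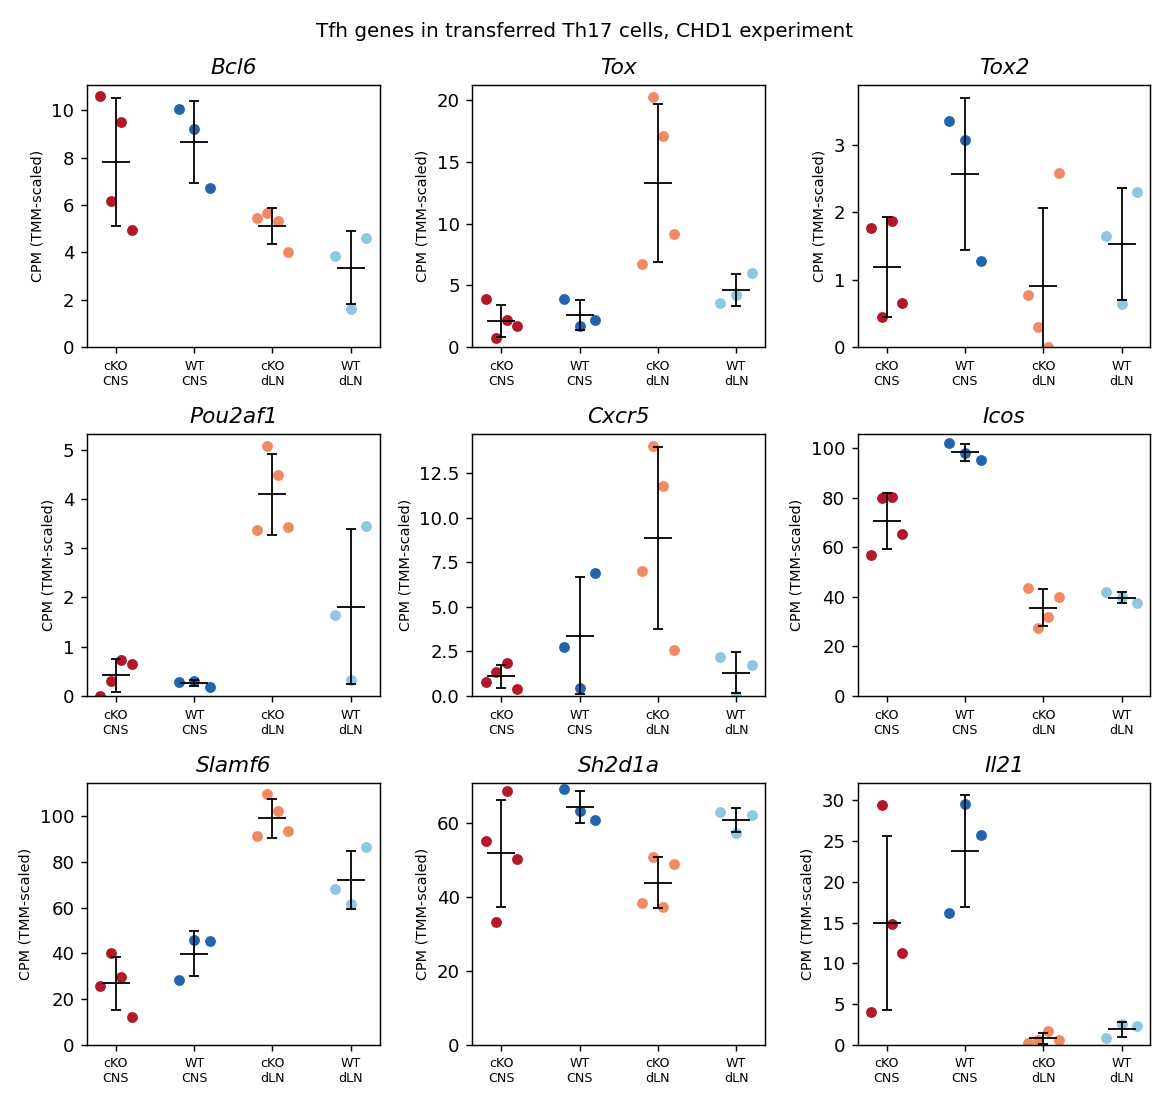
Levels of the 9 genes in CPM (linear axes from 0) in the CHD1 experiment, with cKO CNS, WT CNS, cKO dLN and WT dLN libraries from left to right. Dots are libraries, black bars the mean and whiskers the SD (n = 4 for cKO and 3 for WT groups, cut at 0). Il21 and Icos were higher in both CNS groups than in the dLN groups of the same genotype, and Tox, Cxcr5 and Slamf6 reached their highest levels in cKO dLN libraries.

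Il21 had 4.03, 29.4, 14.9 and 11.3 CPM in CHD1 cKO CNS libraries, against 0.259, 0.596, 1.68 and 0.572 CPM in cKO dLN libraries. In CHD1 WT cells it had 16.2, 29.5 and 25.7 CPM in the CNS, against 0.826, 2.59 and 2.30 CPM in the dLN. Every CNS library lay above every dLN library, although the dLN values rest on 1 to 8 counts each. Il21 rose by 4.23 ± 0.66 on the log2 scale in cKO cells (adjusted p = 0.000149) and by 3.65 ± 0.65 in WT cells (adjusted p = 0.00132).

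Icos had 57.0, 79.9, 80.2 and 65.4 CPM in cKO CNS libraries, against 43.6, 27.4, 31.7 and 40.1 CPM in cKO dLN libraries. In WT cells it had 102, 98.0 and 95.3 CPM in the CNS, against 41.8, 40.1 and 37.4 CPM in the dLN. The tissues did not overlap in either genotype. The log2 fold change was 0.98 ± 0.15 in cKO cells (adjusted p = 0.000123) and 1.31 ± 0.17 in WT cells (adjusted p = 0.000101).

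Slamf6 ran the other way, with 25.8, 40.2, 29.6 and 12.1 CPM in cKO CNS libraries, against 91.1, 109.7, 102 and 93.6 CPM in cKO dLN libraries, and fell by 1.88 ± 0.27 (adjusted p = 6.68e-05). In WT cells it had 28.4, 45.6 and 45.2 CPM in the CNS, against 68.3, 61.7 and 86.3 CPM in the dLN, with a log2 fold change of −0.86 ± 0.31 (adjusted p = 0.0686). The tissues did not overlap in either genotype, where 40% and 38.2% of all genes did not in cKO and WT cells. Sh2d1a overlapped between tissues, averaging 51.8 ± 14.6 CPM in cKO CNS and 43.8 ± 6.96 CPM in cKO dLN libraries (SD, n = 4 each), and 64.4 ± 4.31 CPM in WT CNS and 60.8 ± 3.14 CPM in WT dLN libraries (SD, n = 3 each).

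Among the regulators, Bcl6 had 10.1, 9.21 and 6.74 CPM in WT CNS libraries, against 3.85, 1.62 and 4.60 CPM in WT dLN libraries, without overlap, and rose by 1.35 ± 0.36 (adjusted p = 0.0184). Leaving out WT CNS library 1 or 2 or WT dLN library 2 ended this call, with adjusted p between 0.0533 and 0.0743. In cKO cells Bcl6 averaged 7.82 ± 2.69 CPM in the CNS and 5.11 ± 0.750 CPM in the dLN (SD, n = 4 each), a log2 fold change of 0.60 ± 0.29 that was not called (adjusted p = 0.106), but was without cKO CNS library 4 (0.77, adjusted p = 0.0430). Tox had 3.86, 0.736, 2.16 and 1.69 CPM in cKO CNS libraries, against 6.75, 20.3, 17.1 and 9.16 CPM in cKO dLN libraries, and fell by 2.65 ± 0.44 (adjusted p = 0.000247). In WT cells Tox overlapped between tissues, at −0.81 ± 0.54 (adjusted p = 0.354). Tox2 did not pass the test in either genotype (0.36 ± 0.78 in cKO and 0.73 ± 0.81 in WT cells).

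Pou2af1 had 0, 0.294, 0.721 and 0.650 CPM in cKO CNS libraries, against 3.37, 5.07, 4.49 and 3.43 CPM in cKO dLN libraries, and fell by 3.19 ± 0.64 (adjusted p = 0.000992). In WT cells it had 0.292, 0.307 and 0.182 CPM in the CNS, against 1.65, 0.323 and 3.45 CPM in the dLN, and fell by 2.69 ± 0.84 (adjusted p = 0.0404). The WT call rests on 1 to 12 counts a library and was lost in 5 of the 6 fits that left out 1 library, with adjusted p up to 0.251. Cxcr5 had 0.805, 1.32, 1.88 and 0.390 CPM in cKO CNS libraries, against 7.005, 14.02, 11.8 and 2.58 CPM in cKO dLN libraries, and fell by 2.99 ± 0.74 (adjusted p = 0.00427). Without cKO dLN libraries 2 and 3, the value for Cxcr5 was −2.12 and no longer called (adjusted p = 0.0938). In WT cells Cxcr5 had 2.77, 0.461 and 6.93 CPM in the CNS, against 2.20, 0 and 1.73 CPM in the dLN, which overlapped (1.28 ± 0.94, adjusted p = 0.399).

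Pou2af1, Cxcr5, Bcl6 and Slamf6 are also genes of B cells. The 15 B cell markers summed to 91.2 to 452 CPM in cKO CNS and 215 to 424 CPM in cKO dLN libraries, and to 40.4 to 66.3 CPM in WT CNS and 169.6 to 259.6 CPM in WT dLN libraries. Cd79a, part of the B cell receptor, fell in CNS relative to dLN cells by 2.26 in cKO and by 3.31 in WT cells. The 12 macrophage and microglia markers summed to 2758 to 5272 CPM in cKO CNS and 12.9 to 76.9 CPM in cKO dLN libraries, and to 2485 to 3165 CPM in WT CNS and 12.3 to 71.1 CPM in WT dLN libraries. The 5 CD8 and NK markers summed to 45.8 to 80.8 CPM in cKO CNS and 162 to 689 CPM in cKO dLN libraries, without overlap, and to 48.3 to 75.5 CPM in WT CNS and 27.8 to 66.8 CPM in WT dLN libraries. Dendritic cell and antigen presentation markers summed to 3408 to 6519.7 CPM in cKO CNS and 116 to 248 CPM in cKO dLN libraries, and to 2149 to 2690.5 CPM in WT CNS and 72.1 to 307 CPM in WT dLN libraries. The part of all these cells in the tissue results was not tested.

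On the list of further follicular helper genes, 11 of 22 rose and 7 fell in CNS relative to dLN cells in the cKO, and 8 rose and 6 fell in WT cells. Of all genes, 47.3% were called in cKO and 16.7% in WT cells, shares that also stand behind the counts of the 2 lists below. The medians of the helper genes were 0.42 and 0.63, against −0.02 and −0.01 over all genes. Pdcd1 had 91.3, 37.98, 116 and 73.9 CPM in cKO CNS libraries, against 1.82, 8.95, 3.09 and 12.0 CPM in cKO dLN libraries, and rose by 3.64 ± 0.42 (adjusted p = 1.07e-05). In WT cells Pdcd1 rose by 2.82 ± 0.45 (adjusted p = 0.000524), and Maf, a factor that drives Il21 and Il4, rose by 2.51. Id3, another E protein inhibitor, fell by 3.35 in cKO cells. Of the 14 opposing genes, 6 rose and 6 fell in cKO cells and 4 rose and 4 fell in WT cells. S1pr1, a sphingosine phosphate receptor that guides exit from lymph nodes, fell in CNS cells by 2.96 in cKO and by 2.88 in WT cells, and Prdm1 rose by 2.29 in cKO cells. Of 10 tested SLAM and SAP genes, 6 rose and 2 fell in cKO cells and 4 rose in WT cells, Slamf7 by 2.66 and 3.02 and Slamf1 by 1.74 and 1.22.

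**Figure D3:**
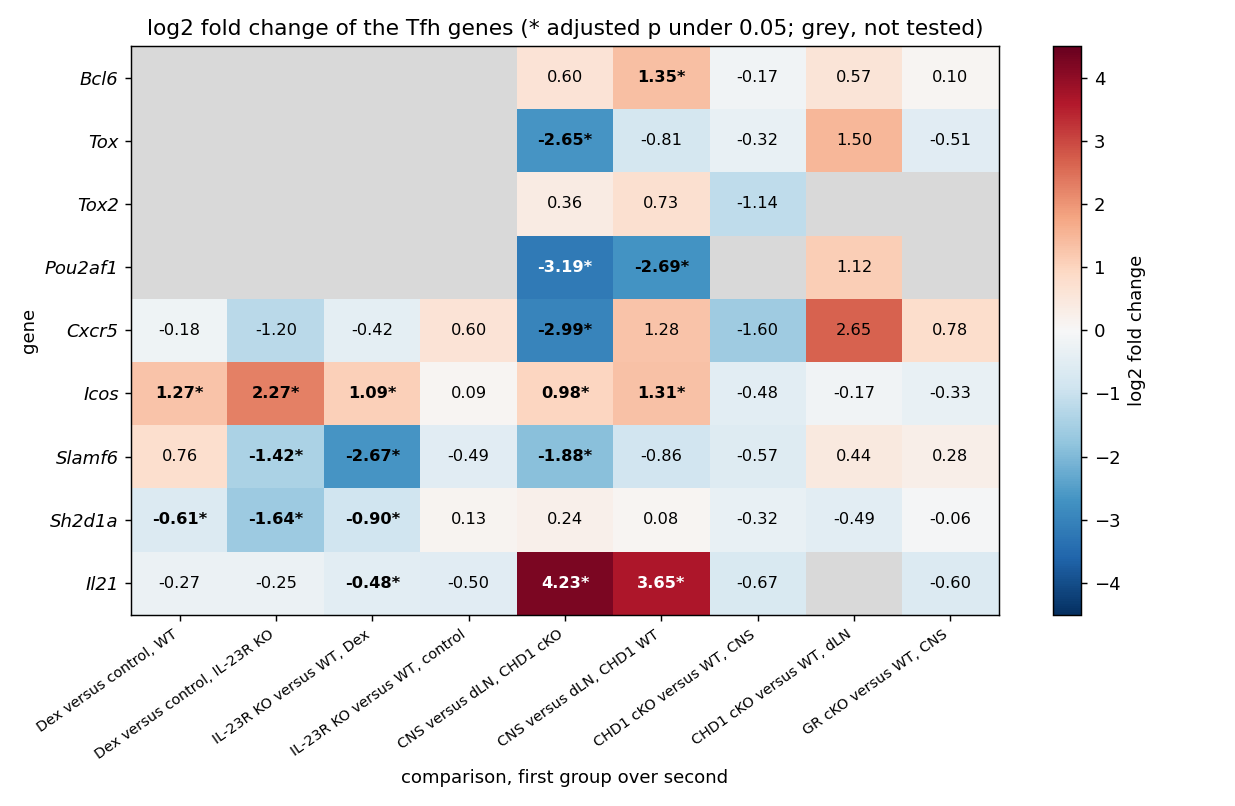
Log2 fold changes of the 9 genes (rows) in 9 comparisons (columns, first group over second), coloured from blue (lower) to red (higher). Stars mark adjusted p under 0.05 in edgeR and grey marks genes not tested. Icos was the 1 gene called in all 5 comparisons of Dex, of tissue, and of IL-23R KO with WT under Dex, and the 3 columns of cKO versus WT held 0 called genes.

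Deletion of CHD1 left these genes without a called change in the CNS. DESeq2 gave an adjusted p for 5 of the 9 genes and called 0. By edgeR 0 of 8 tested genes were called, where 0.00896% of 11157 genes were. An unadjusted p under 0.05 was found for 1 of the 8, where 1326 of all genes had one. All 8 fitted values were negative, with a median of −0.53 against −0.01 over all genes. Icos was the gene with the small p: CHD1 cKO libraries had 57.0, 79.9, 80.2 and 65.4 CPM, against 102, 98.0 and 95.3 CPM in CHD1 WT libraries, without overlap (log2 fold change −0.48 ± 0.15, adjusted p = 0.276). Without overlap were 12.8% of all genes in this comparison. The fitted values farthest from 0 belonged to 2 low genes, Cxcr5 (−1.60 ± 0.76, adjusted p = 0.442) and Tox2 (−1.14 ± 0.55, adjusted p = 0.448), whose groups overlapped. Without WT CNS library 3, Cxcr5 was at −0.59 (adjusted p = 0.879). Il21 also overlapped, at −0.67 ± 0.49 (adjusted p = 0.627). So did Slamf6 (−0.57 ± 0.34), Tox (−0.32 ± 0.53), Sh2d1a (−0.32 ± 0.21) and Bcl6 (−0.17 ± 0.29). T cell markers summed to 14254 to 34461 CPM in cKO CNS libraries, against 27116 to 34474 CPM in WT CNS libraries. The 7 dendritic cell and antigen presentation markers summed to 3408 to 6519.7 CPM in cKO CNS libraries, against 2149 to 2690.5 CPM in WT CNS libraries, without overlap, as did the B cell markers given above. The part of these cells in the result was not tested.

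In the dLN the same deletion gave a mixed picture, again with 0 of 7 genes called by edgeR, where 0.0714% of 9803 genes were. An unadjusted p under 0.05 was found for 4 of 7 genes, where 1971 of 9803 genes had one. DESeq2 called 1 of the genes and 319 of all, and the groups of 4 genes did not overlap, where 17.1% of all genes did not. Cxcr5, Tox, Slamf6, Bcl6 and Pou2af1 had positive values, and Sh2d1a and Icos moved against them. Cxcr5 had 7.005, 14.02, 11.8 and 2.58 CPM in CHD1 cKO libraries, against 2.20, 0 and 1.73 CPM in CHD1 WT libraries (2.65 ± 0.73, adjusted p = 0.109 in edgeR and 0.0360 with DESeq2). Tox had 6.75, 20.3, 17.1 and 9.16 CPM in cKO libraries, against 3.58, 4.20 and 6.04 CPM in WT libraries (1.503 ± 0.413, adjusted p = 0.110). Both genes were higher in each cKO library than in any WT library.

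Slamf6 had 91.1, 109.7, 102 and 93.6 CPM in cKO dLN libraries, against 68.3, 61.7 and 86.3 CPM in WT dLN libraries, also without overlap (0.44 ± 0.14, adjusted p = 0.132). Sh2d1a had 38.4, 50.7, 37.3 and 48.9 CPM in cKO libraries, against 63.0, 57.2 and 62.2 CPM in WT libraries, with each cKO library below each WT library (−0.49 ± 0.14, adjusted p = 0.122). So the SLAM receptor and the adaptor that serves it had opposite signs here. Icos, Bcl6 and Pou2af1 overlapped between genotypes, at −0.17 ± 0.17, 0.57 ± 0.35 and 1.12 ± 0.52. Without cKO library 4, Tox (1.64, adjusted p = 0.0384), Cxcr5 (2.95, adjusted p = 0.0148) and Sh2d1a (−0.55, adjusted p = 0.0458) were called, and all genes called numbered 990 in place of 7.

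The cKO dLN libraries also held more of CD8 T cell transcripts. Cd8a had 63.8, 161, 125 and 30.1 CPM in cKO dLN libraries, against 1.93, 0.323 and 1.44 CPM in WT dLN libraries, and was called higher (6.17 ± 0.76, adjusted p = 0.0355), as was Cd8b1 (3.84 ± 0.51, adjusted p = 0.0355). The 5 CD8 and NK markers summed to 319, 689, 554 and 162 CPM in cKO libraries, against 36.3, 27.8 and 66.8 CPM in WT libraries, with Ncr1 at 0 in the cKO. Among the 4 cKO libraries Cxcr5 followed the order of these sums, while Tox and Slamf6 were lower in library 1 than in library 4, against that order. Cd4 was at 71.6 to 177 CPM in cKO and 168 to 219 CPM in WT dLN libraries, and the 10 T cell markers summed to 8502 to 18896 CPM and 22735 to 25803 CPM. Taken singly, 6 of these 10 markers had positive and 4 negative log2 fold changes, with a median of 0.17, and 0 were called. Without cKO libraries 2 and 3, which had the highest sums and also the highest Cxcr5, Tox and Slamf6, Tox was at 0.77 (adjusted p = 0.542), Slamf6 at 0.35 and Sh2d1a at −0.49, and Cxcr5 no longer passed the filter. The part of CD8 cells in these values was not tested.

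**Figure D4:**
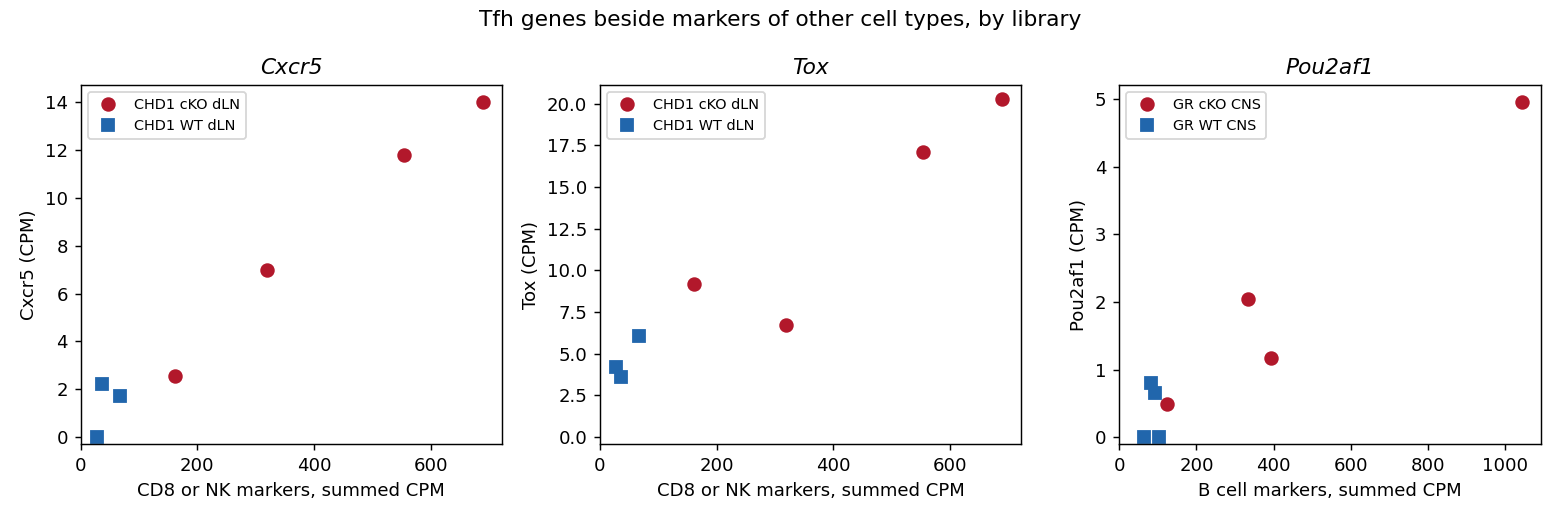
Level of Cxcr5 and Tox in CPM against the summed CPM of 5 CD8 and NK markers in CHD1 dLN libraries (left and middle), and level of Pou2af1 against the summed CPM of 15 B cell markers in GR CNS libraries (right). Each symbol is a library, circles for cKO and squares for WT. The highest Cxcr5 and Tox (14.02 and 20.3 CPM) stood in the cKO dLN library with 689 CPM of CD8 and NK markers, and the highest Pou2af1 (4.96 CPM) in the GR cKO library with 1042 CPM of B cell markers.

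Whether the CHD1 effect differed between tissues was tested by the interaction. By edgeR 0 of 9 genes were called, where 0.112% of all genes were. An unadjusted p under 0.05 was found for 3 genes (Cxcr5, Tox and Slamf6), where 2190 of 11589 genes had one. DESeq2 gave an adjusted p for 4 of the 9 genes and called 0. In edgeR 7 fitted values were negative, and Sh2d1a (0.16 ± 0.27) and Il21 (0.58 ± 1.05) moved against them. Cxcr5 had −4.27 ± 1.18 (adjusted p = 0.1004), Tox −1.85 ± 0.70 (adjusted p = 0.181) and Slamf6 −1.02 ± 0.40 (adjusted p = 0.194), negative meaning a lower cKO effect in the CNS than in the dLN. In edgeR without cKO dLN libraries 2 and 3, these were −3.41 (adjusted p = 0.364), −1.11 (adjusted p = 0.549) and −0.92 (adjusted p = 0.447). The 3 tested CD8 and NK markers also had negative interactions, and 1 was called, where 0.112% of all genes were. The part of CD8 cells in the interaction was not tested. The 1 called gene among the further follicular helper genes was Lef1, a factor upstream of Bcl6, at −1.73 ± 0.30 (adjusted p = 0.0472). In the genotype comparisons themselves, edgeR called 0 of 22 such genes in the CNS and 0 of 20 in the dLN, while 7 and 12 had an unadjusted p under 0.05, where 1326 of 11157 genes in the CNS and 1971 of 9803 in the dLN did. DESeq2 called 2 and 7 of them, and 176 and 319 of all genes. Of the 14 opposing genes edgeR called 0 in either tissue, with 3 in the CNS and 11 in the dLN at an unadjusted p under 0.05 and 1 and 2 called by DESeq2.

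With GR deleted, edgeR called 0 of the 7 tested genes in CNS cells. An unadjusted p under 0.05 was found for 1 gene, DESeq2 called 0, and edgeR called 0% of 11148 genes, where 1226 had an unadjusted p under 0.05 and DESeq2 called 113. Icos had 48.0, 63.1, 65.2 and 50.4 CPM in GR cKO libraries, against 76.0, 62.3, 85.0 and 62.1 CPM in GR WT libraries, which overlapped (−0.33 ± 0.14, adjusted p = 0.446). Il21 had 3.89, 6.09, 3.26 and 4.26 CPM in GR cKO libraries, against 5.20, 5.94, 10.5 and 5.36 CPM in GR WT libraries (−0.60 ± 0.29, adjusted p = 0.482). These 2, Tox (−0.51 ± 0.41) and Sh2d1a (−0.06 ± 0.15) had negative values, and Bcl6 (0.10 ± 0.21), Slamf6 (0.28 ± 0.18) and Cxcr5 (0.78 ± 0.48) moved against them. This split is not firm. Sh2d1a turned positive without GR WT library 1 (0.041) or GR cKO library 5 (0.044). Bcl6 turned negative without GR WT library 4 (−0.017) or GR cKO library 7 (−0.020). Without GR cKO libraries 7 and 9, Cxcr5 was at 0.03. The groups of all 7 overlapped, where 6.46% of all genes did not.

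Cxcr5, Slamf6 and Bcl6 are also expressed in B cells, and so is Pou2af1. Pou2af1, which was not tested, had 0.486, 1.17, 4.96 and 2.04 CPM in GR cKO libraries, against 0, 0, 0.658 and 0.805 CPM in GR WT libraries. B cell markers summed to 124, 394, 1042 and 335 CPM in the GR cKO libraries, against 63.4, 104, 92.1 and 83.5 CPM in the GR WT libraries, and Cd79a had 4.22, 8.81, 24.4 and 10.7 CPM against 1.04, 0.950, 2.30 and 2.41 CPM. T cell markers summed to 17369 to 22895 CPM in GR cKO and 21185 to 30750.3 CPM in GR WT libraries, and dendritic cell and antigen presentation markers to 4199 to 6701 and 1916 to 4546 CPM. Taken singly, the 9 tested B cell markers all had positive log2 fold changes, and 5 did not overlap, where 6.46% of all genes did not. The 10 T cell markers all had negative ones. In edgeR 0 markers of these 3 lists were called, as were 0% of all genes. The part of these cells was not tested. Of the further follicular helper genes edgeR called 0 of 21, of the opposing genes 0 of 14 and of the SLAM and SAP genes 0 of 10, with 4, 3 and 3 at an unadjusted p under 0.05 and 1, 1 and 0 called by DESeq2.

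Levels per kilobase of annotated exon give a ranking of the genes within a group that depends on the lengths used. In IL-23R KO Dex cultures Icos was highest at 79.0 ± 7.87 CPM per kb, followed by Il21 at 19.4 ± 2.43 and Sh2d1a at 9.37 ± 0.905, whereas in WT controls Il21 was highest at 32.7 ± 5.33, followed by Sh2d1a at 26.7 ± 1.08 and Icos at 15.4 ± 1.97 (SD, n = 4 each). In CHD1 WT CNS cells the order was Icos (28.7 ± 1.01), Sh2d1a (11.7 ± 0.783) and Il21 (4.52 ± 1.303), and in CHD1 WT dLN cells Icos (11.6 ± 0.651) and Sh2d1a (11.05 ± 0.570) lay within their spread, with Slamf6 at 6.66 ± 1.18 and Il21 at 0.362 ± 0.180 (SD, n = 3 each). Bcl6 per kb was at 1.17 to 1.45 on average in the 4 CNS groups, 0.501 and 0.763 in the dLN groups and 0.0804 to 0.287 in culture. These levels are scaled within tables, so the order within a group is firmer than the level across tables. The lengths join all annotated exons of a gene (10832 bases for Slamf6, 3430 for Icos), and which exons were transcribed was not measured. In CPM without this division, Slamf6 lay above Sh2d1a and Icos in CHD1 WT dLN cells (72.1, 60.8 and 39.8 CPM).

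Across all 38 libraries, with each table centred on its own mean, the 4 genes tested in every table were compared with 9206 genes by the Pearson correlation of log2 CPM. Sh2d1a and Icos ran in opposite directions (r = −0.77), and Sh2d1a and Slamf6 in the same direction (r = 0.43). The fitted values of Sh2d1a and Icos had opposite signs for Dex in both genotypes. In mice they shared a sign in each genotype comparison and in both tissue contrasts, so r does not describe each experiment. The genes most like Sh2d1a were Ndfip1 (r = 0.93), Rassf5 (0.89) and Gata3 (0.89), and those most like Icos were Tmem71 (0.93), Isg20 (0.92) and Fkbp1a (0.91). Slamf6 was most like Atpaf1 (0.80) and the mitochondrial genes mt-Nd5 (0.78) and mt-Atp6 (0.77), and Cxcr5 was most like Id3 (0.65), Capn10 (0.65) and Tcf7 (0.64). These are descriptions over libraries that share groups, cell mixture and depth.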

How the data were processed

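Messenger RNA was measured in 38 libraries of 2000 sorted cells each. The deposited tables give expected counts for each gene symbol. Per the submitters' processing notes the tool was RSEM 1.3.3 and the build mm10. All values were whole, so they were taken to be estimates that had been rounded. The aligner and annotation release are not given in the sources used here, and the labels name neither molecular identifiers nor a strand-specific kit. Groups came from the labels.

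Counts were tested with edgeR 4.0.16 in R 4.3.3. Genes were kept by filterByExpr (minimum count 10, minimum total 15), scaled by TMM and tested by the quasi-likelihood F test, with calls at a Benjamini-Hochberg adjusted p under 0.05 over all genes. Each genotype comparison in mice was fitted within its table, culture contrasts in 1 fit of 16 libraries, and tissue contrasts in 1 fit of the 14 CHD1 libraries. Levels are CPM on TMM-scaled totals, those of the CHD1 libraries from the joint fit. Depth was 3148634 to 9159671 counts. Per kilobase values and gene positions used GENCODE M21, which held 98.1% of the symbols.

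All 9 genes were named in each comparison, and up to 4 called genes with the largest change from each other list. The genes and lists were chosen with earlier results of these data known. The alternatives were DESeq2 1.42.0, its size factors, no filter, removal of 16 repeat and ribosomal RNA features, a replicate block, other sets of libraries in the fit, and leaving out each library in turn. Fits without doubted libraries were added after seeing the data. The code was tested on simulated data. Of 54 pairs of libraries within a group, none was as close as 1 library sequenced again. Some genes of the lists are not reported here.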

Additional observations from a re-analysis of the deposited data

Results flagged for a closer look

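The responses to Dex of 3 genes differed between IL-23R KO and WT cells by the interaction test in edgeR: Sh2d1a by −1.03, Slamf6 by −2.18 and Icos by 1.00 on the log2 scale.

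Single libraries stood far from the other 3 of their group by Dixon's test in 6 of 72 combinations of gene and group, where chance flags about 1 in 20. Slamf6 was low in IL-23R KO Dex library 8, at 0.265 CPM. Il21 was high in GR WT library 3, at 10.5 CPM. Bcl6 was high in WT control library 1 (1.61 CPM) and WT Dex library 2 (1.32 CPM), and Tox2 in WT control library 1 (0.805 CPM) and IL-23R KO control library 7 (1.60 CPM). The values of Bcl6 and Tox2 rest on 4 to 8 counts.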

How the results depend on the processing

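Counts of called genes kept within 1.5 times of the reported count in 146 of 160 refits. In the dLN, CHD1 cKO against WT, 1 gene was called with DESeq2 (Cxcr5) and 2 without a filter (Tox and Cxcr5). For Dex in IL-23R KO cells, 6 were called with DESeq2 and 5 without a filter. For IL-23R KO against WT controls, 1 was called (Il21) with DESeq2 and without a filter (adjusted p = 0.0419). For the CHD1 genotype by tissue interaction, 1 was called (Cxcr5) without a filter. Leaving out 1 library gave 0 to 3 called genes in the dLN, 0 to 1 for the tissue interaction (Cxcr5 without cKO dLN library 4), 0 to 1 for IL-23R KO against WT controls (Il21 without WT control library 2) and 2 to 3 for CNS against dLN in WT cells, where the fits without WT CNS library 1 or 2 kept Il21 and Icos. The cause of these moves was not tested.

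Same-numbered libraries correlated from −0.080 to 0.109. With 3 or 4 pairs in each comparison, these values cannot tell whether the numbers pair the samples. With a replicate block, 2 genes were called in the dLN (Tox, adjusted p = 0.0282, and Cxcr5, adjusted p = 0.0450), among 613 of all genes in place of 7. No WT dLN library bears the number 4, so this block gave cKO dLN library 4 no weight in the contrast. The result is therefore not separate from that of the fit without cKO dLN library 4. The block also called Cxcr5 in the tissue interaction (1 gene, adjusted p = 0.0438) and with Dex in IL-23R KO cells (adjusted p = 0.0487) and Slamf6 between WT tissues (adjusted p = 0.0492), and lost Pou2af1 there (adjusted p = 0.119). No paired analysis was possible for the GR and the IL-23R KO against WT comparisons because their groups share no numbers.

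Over all genes, DESeq2 called 176 in the CHD1 CNS comparison, 319 in the dLN and 113 for GR, against 1, 7 and 0 by edgeR. On CPM of all deposited counts, 77 of 90 levels moved by less than 1 SD.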
